A study of Mus musculus with 11 samples.

Results

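Leukemic cells were compared with normal bone marrow proB cells. The comparison used 8 of the 11 libraries of the series: 6 libraries from leukemic mice and 2 from wild-type mice. All were made from total RNA of C57BL/6J mice. The leukemic cells (B-ALL, B cell acute lymphoblastic leukemia) came from lymph nodes of mice that had lost 1 copy each of Ebf1 and Pax5 (Ebf1+/- Pax5+/-). Mice 686, 713 and 760 gave 2 libraries each, which were averaged on the log2 scale, so that the mouse was the replicate (n = 3). The normal cells (wt proB) were Ebf1+/+ Pax5+/+ Rag2+/+, were sorted from marrow as Fraction BC and gave 2 libraries (n = 2). The sources used here do not say whether the latter came from separate animals, so their spread may be technical. Nor do they give the animals' ages or say whether the lymph node cells were sorted. Beside both, values are given for cultured cells that carry the leukemic genotype and no Rag2 (dHet proB: Ebf1+/- Pax5+/- Rag2-/-). These grew from c-Kit+ fetal liver cells on OP9 stroma with IL-7 at 5 ng/ml and with Flt3L and SCF at 10 ng/ml each, and gave 3 libraries. Genotype, organ and leukemia change together between B-ALL and wt proB and cannot be told apart. In such bulk samples, fewer cells of a type and less RNA per cell cannot be told apart either.

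A proB cell is a B cell precursor that is still joining the segments of its immunoglobulin heavy chain gene. The RAG recombinase cuts the segments, IL-7 keeps the cell growing, and the surrogate light chain waits for a finished heavy chain to form the pre-B cell receptor. EBF1 and PAX5 are the transcription factors that switch this programme on and hold it. Loss of function of either occurs in B cell leukemia, and mice that lack 1 copy of both develop it.

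Expression is given as FPKM, fragments scaled by transcript length and library. Of 24319 gene symbols in the tables, 10878 had an FPKM of 1 or more in at least 2 of the 5 units (3 mice and 2 wt proB libraries) and were tested. Changes are log2 fold changes of FPKM + 1, which understates the change of low genes, and the test was limma with a Benjamini-Hochberg adjusted p below 0.05. The labelled cell type was borne out by its markers in every library. Cd79a, a signalling chain of the B cell receptor, had FPKM of 1249 and 1247 for mouse 686, 2354 and 2375 for 713 and 1338 and 1274 for 760, against 1441 and 1322 in wt proB. Vpreb1, a part of the surrogate light chain, stood at 1463 to 2217 in the 6 B-ALL libraries and at 1352 and 1381 in wt proB. Libraries of the same mouse had Pearson r across genes of 0.98 to 0.993, the wt proB libraries 0.986, and B-ALL with wt proB libraries 0.874 to 0.902. Ratios of low values put the depth of all libraries between 0.64 and 1 times that of library 1 of mouse 686. No counts are at hand, so no counting error is given. Ddx3y, a Y-linked gene, had 15.7 to 18.4 in mice 686 and 713 and 21.1 and 18.3 in wt proB. In mouse 760 it had at most 0.00739, and whether this reflects the sex of the animal was not tested.

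B-ALL cells expressed 920 genes at a higher level than wt proB cells (8.46% of the genes tested) and 1124 at a lower level (10.3%). These 2 shares are the background for every count of list members below. The falls were the larger changes: 804 of the lower genes and 520 of the higher ones changed by 2-fold or more, and 304 and 106 by 4-fold or more. The median change over all tested genes was -0.02. Counted without a model, all 6 B-ALL libraries lay above both wt proB libraries in 2601 genes (23.9%) and below both in 2669 (24.5%). Of the genes that passed the test, 915 of the higher and 1115 of the lower ones were among these.

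These counts lean on the 2 wt proB libraries and on mouse 686. Without wt proB library 1 the test called 90 genes higher and 83 lower, and without library 2 it called 46 and 60, where the lone wt proB library is assumed to vary like the other groups. Without mouse 686 the counts were 395 and 702. The FPKM minimum was applied anew in each fit, so a gene seen almost only in wt proB was not tested once either library was left out. With the genes of the full comparison kept, the counts were 223 and 437 without library 1 and 114 and 383 without library 2, though these genes had been selected with the help of the library left out. Statements below on leaving out a mouse or library refer to 14 fits that keep the other groups: without each mouse, each wt proB or dHet proB library, or each single leukemic library. No gene called in the full comparison changed direction in any of these fits. When FPKM values were rescaled to a common sum (TPM), the median of all genes moved to -0.23 and the split from 45.0% higher among the called genes to 23.9%, with 540 higher and 1717 lower.

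**Figure D1:**
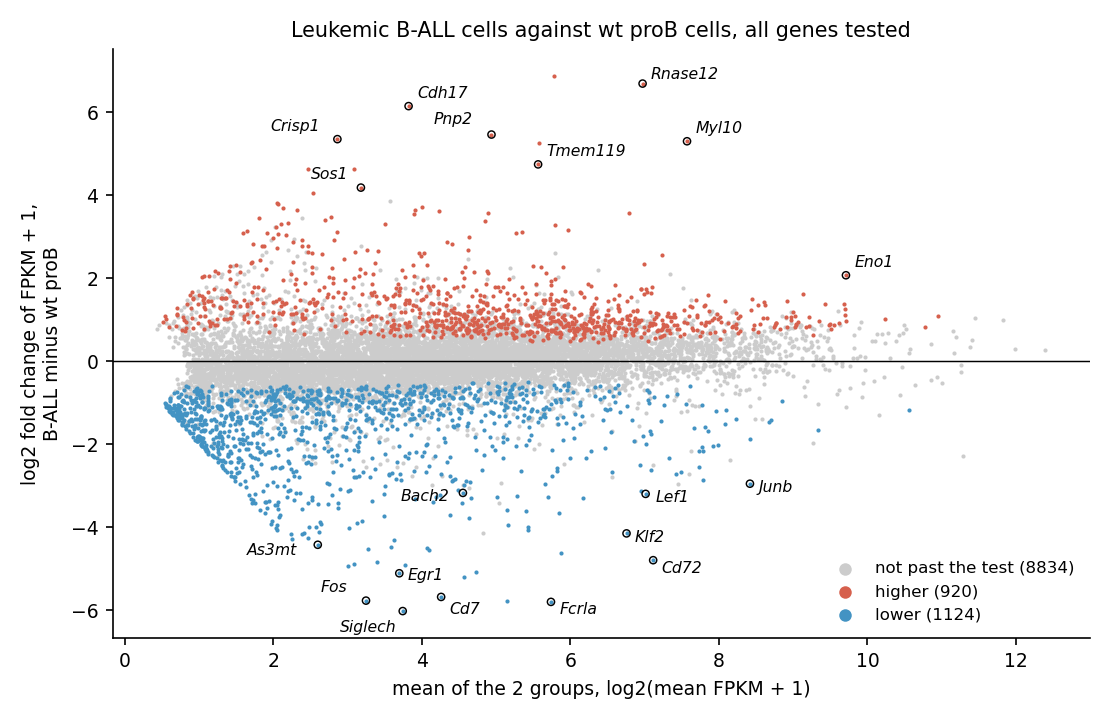
Each point is 1 of the 10878 genes tested; the x axis is the mean of the groups' log2(mean FPKM + 1) and the y axis the log2 fold change of FPKM + 1, B-ALL minus wt proB. Red points (920) passed the limma test as higher and blue points (1124) as lower, and circles mark genes named in the text.

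Several of the strongest rises lay side by side in the genome. Rnase12 belongs to the ribonuclease A family. Its FPKM was 1167 and 1184 for mouse 686, 1559 and 1540 for 713 and 1134 and 1085 for 760, against 12.2 and 10.5 in wt proB. All 6 leukemic libraries were thus about alike and far above both normal ones (log2 6.69, SE 0.69, adjusted p = 0.000802). The dHet proB libraries had 9.37, 6.57 and 48.8. In the order of genes along chromosome 14, Rnase12 sits in a stretch of 9 tested genes that all rose. The stretch runs Apex1, Pnp, Pnp2, Rnase10, Rnase9, Rnase11, Rnase12, Ang and Rnase4. RefSeq's annotation of GRCm38.p6 gave the order and placed 10336 of the 10878 tested genes, and untested genes were passed over. The next longest stretches of neighbours that rose held 3 genes, of which there were 10, and those that fell reached 4 genes, of which there were 4. The stretch was noticed after the values were seen, and its members other than Rnase10, Rnase11, Rnase12, Pnp and Pnp2 were picked for their place alone.

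The members of the stretch differ in kind and in level. Apex1, a base excision repair endonuclease, had 195 to 292 in the B-ALL libraries against 88.4 and 58.1 (log2 1.77, adjusted p = 0.0178). Pnp and Pnp2 encode purine nucleoside phosphorylases. Pnp2 had 220 and 207 for mouse 686, 307 and 302 for 713 and 115 and 108 for 760, against 4.0 and 2.92 (log2 5.46, adjusted p = 0.00237). Pnp itself rose by 1.84. These 2 genes are near copies, so how reads were split between them is uncertain. Rnase10 was highest in mouse 760, with 129 and 107, and lowest in mouse 713, with 11.8 in both libraries, against 0.701 and 0.0509 in wt proB (log2 4.63). Rnase11 was highest in mouse 713, with 48.9 and 48.4, and lowest in mouse 686, with 13.2 and 12, against 0 and 0.0684 (log2 4.63). Rnase9 stayed low, at 1.16 to 4.55 against 0.0303 and 0, and still passed (log2 1.66, adjusted p = 0.0141). Ang, which encodes angiogenin, had 8.01 to 16.1 against 3.24 and 1.76 (log2 1.99, adjusted p = 0.04), and Rnase4 35.4 to 80.6 against 11.8 and 10.4 (log2 2.14, adjusted p = 0.00881). Osgep, just before Apex1, had 80.4 to 104 against 68.7 and 53.2, without overlap, and did not pass (log2 0.59, adjusted p = 0.0509), though it did in 5 of 27 alternative settings. Rnase6, the next tested gene after Rnase4, fell: it had 2.37 to 24.0 in B-ALL against 148 and 90.3 (log2 -3.95, adjusted p = 0.0119). In dHet proB against wt proB, which shares the wt proB libraries, none of the 9 genes passed. The closest was Rnase4 (log2 1.31, adjusted p = 0.0826). Rnase11 and Rnase12 passed in each of the 14 fits that left out a mouse or library. Pnp2 lost its call without wt proB library 2, and the other 6 genes lost theirs without either wt proB library. Apex1, Pnp and Ang also lost it without mouse 686, and Ang without mouse 713, without dHet proB library 1 and after rescaling to TPM.

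**Figure D2:**
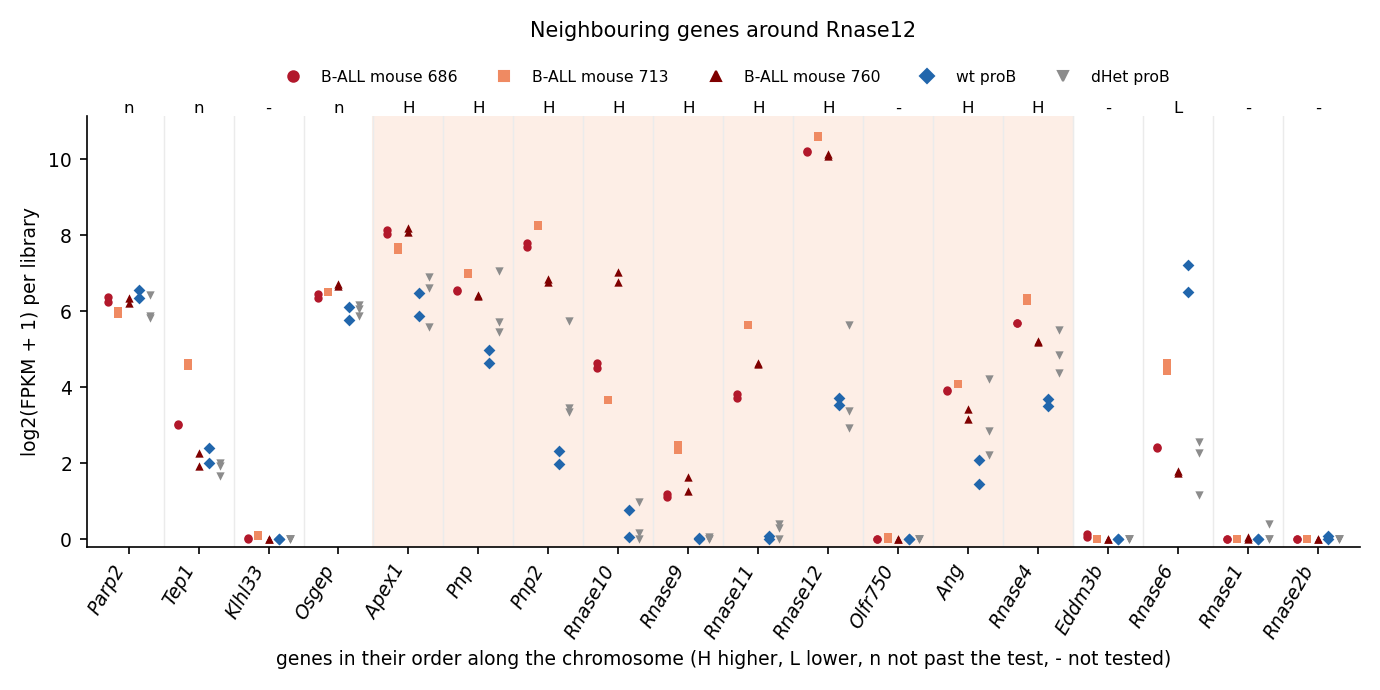
Genes are placed in their order along chromosome 14, with log2(FPKM + 1) of each library on the y axis and letters for the call above. In the shaded stretch from Apex1 to Rnase4 all 6 B-ALL libraries lie above both wt proB libraries in each of the 9 genes marked H, while Rnase6 beyond it lies below.

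In 5 other large rises, those of Sos1, Myl10, Cdh17, Crisp1 and Tmem119, neither of the next tested neighbours passed as higher. Sos1 encodes an exchange factor that loads RAS with GTP. It had 38.3 and 30.7 for mouse 686, 48.3 and 42.8 for 713 and 35.1 and 31.5 for 760, against 1.06 and 1.17 in wt proB and 0.905 to 1.39 in dHet proB. Sos1 was thus low, near the FPKM minimum of 1, in all 5 proB libraries and at like levels in all 6 leukemic ones (log2 4.18, SE 0.21, adjusted p = 6.93e-05). It kept its call in each of the 14 fits. Of its neighbours, Morn2 fell by 1.48 on the log2 scale and Thumpd2 had 10.6 to 16.2 against 11 and 13.1, a difference whose sign turned after rescaling to TPM. Myl10, a myosin light chain, had 1020 and 1029 for mouse 686, 792 and 772 for 713 and 1969 and 1800 for 760, against 30.9 and 25.8 (log2 5.30, adjusted p = 0.000406). Its dHet proB values lay between, at 100, 150 and 259. Cdh17, a cadherin of the gut lining, had 109 and 95.4 in mouse 686, then 309 and 293, then 28.0 and 27.8 in mouse 760, against 0.579 and 0.183. Mouse 713 was highest and mouse 760 lowest, and each library was far above wt proB (log2 6.14, adjusted p = 0.00243, lost without wt proB library 2). Crisp1, a secreted protein of the epididymis, had 31.0 to 81.9 against 0.122 and 0.0555 (log2 5.35, adjusted p = 0.000199). Tmem119, better known from microglia and bone, had 126 to 488 against 7.16 and 7.86 (log2 4.74, lost without either wt proB library). Gm525, a predicted gene that the naming rule leaves out, had 57.5 and 53.7 for mouse 686, 900 and 811 for 713 and 1830 and 1330 for 760, against 2.26 and 3.01 (log2 6.87, adjusted p = 0.00703), a larger rise than any gene the rule names; it was singled out after its values were seen.

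Further rises shared by the mice were more even. Vash2, an angiogenesis factor, had 12.7 to 16.1 in the 6 libraries against 0.323 and 0.125, and 2.86 to 4.34 in dHet proB (log2 3.68, adjusted p = 7.74e-05). Dok2, an adaptor that dampens tyrosine kinase signals, had 69.1 to 131 against 6.7 and 8.49 (log2 3.56). Tmem121 had 145 to 221 against 16 and 17.5 (log2 3.27), Dyrk4, a protein kinase, 8.86 to 21.4 against 0.0626 and 0.107 (log2 3.81), and Galnt14, a glycosyltransferase, 14.5 to 37.1 against 1.34 and 0.646 (log2 3.48). These 5 genes kept their calls in each of the 14 fits that left out a mouse or library. Receptor genes rose as well: Ffar2, which senses short-chain fatty acids, by 4.05, Trem1, an activating myeloid receptor, by 3.55, and Il1r2, a decoy receptor for IL-1, by 3.33. Tnfsf11, which encodes RANKL, rose by 3.39, and Prnp, the prion protein gene, by 3.61. Among these 5, Ffar2 lost its call without wt proB library 2, and the other 4 without either wt proB library. Tnfsf11 and Prnp were also high in dHet proB, at 7.56 to 38.1 and 20.4 to 77.7.

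Of the B lineage transcription factors, none of 29 tested rose and 12 fell, with a median of -0.85 beside -0.02 over all genes. Ebf1, which has 1 intact copy in the leukemic mice, had 170 and 151 for mouse 686, 212 and 185 for 713 and 189 and 155 for 760, against 297 and 542 in wt proB. The groups did not overlap (log2 -1.19, adjusted p = 0.0198), though the call was lost without wt proB library 2 or mouse 686. Pax5, also at 1 copy, had 35.3 to 52.8 against 101 and 57.2 and did not pass (log2 -0.79, adjusted p = 0.0664). Bach2, a repressor that guards B cell progenitors, had 4.02 to 9.57 in B-ALL against 59.9 and 76.9 (log2 -3.18, adjusted p = 0.000622), and 56.0 to 86.3 in dHet proB. It kept its call in each of the 14 fits. Lef1, a nuclear partner of Wnt signalling, had 20.3 to 31.4 in mice 686 and 713 and 85.2 and 81.4 in mouse 760, against 302 and 421 (log2 -3.20, adjusted p = 0.00495). In dHet proB it stood at 382 to 546. Irf4, which helps cells move on to light chain rearrangement, fell from 36.7 and 35.0 to between 2.97 and 7.14 (log2 -2.66). The calls of Lef1 and Irf4 were lost without either wt proB library, and the list's count of falls was 2 without each.

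Klf2, a quiescence factor, fell from 324 and 315 (log2 -4.15, adjusted p = 0.0116), but the libraries of a mouse did not agree on its level. It had 1.2 and 38.9 for mouse 686, 33.8 and 121 for 713 and 7.27 and 10.1 for 760. Prkcb, a kinase downstream of the antigen receptor, split alike, with 12.7 and 38.5, 18.5 and 46.6, and 20.8 and 28.0, against 49.5 and 58.8 (log2 -1.07). In all 3 mice library 1 was the lower of the pair for both genes. Neither call held with the libraries kept apart and the mouse as a random effect. Tcf3, which encodes the E proteins E12 and E47, had 49.1 and 168 in mouse 686 against 203 to 430 in the other mice and 476 and 578 in wt proB, and did not pass (adjusted p = 0.115). What separates these libraries was not tested.

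In the pre-B cell receptor pathway 2 of 25 genes rose and 4 fell, with a median of -0.08, beside 8.46% and 10.3% of all genes. Cd72, an inhibitory co-receptor, had 11.5 to 13.1 in mice 686 and 713 and 63.4 and 65.3 in mouse 760, against 630 and 623 (log2 -4.80, adjusted p = 0.0026). Its level in dHet proB was 193 to 323. Blnk, the scaffold that links the receptor to its kinases and a tumour suppressor in pre-B cells, had 124 to 198 against 394 and 353 (log2 -1.2, adjusted p = 0.0395). Pik3ap1, which recruits PI3 kinase, fell by 2.59. Plcg2, the phospholipase of the pathway, went up, from 69.7 and 63.6 to between 108 and 129 (log2 0.85, adjusted p = 0.0182), but not after quantile normalization or rescaling to TPM. All calls of this list were lost without either wt proB library.

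Of 16 genes of V(D)J recombination and end joining 4 fell and 1 rose (median -0.48), beside 10.3% lower and 8.46% higher over all genes. Rag2 had 11.1 to 16.6 in B-ALL against 37.8 and 31.1 (log2 -1.26, adjusted p = 0.00656, lost without either wt proB library). Rag1 had 14.5 to 20.4 against 35.2 and 37.1, without overlap, and just missed the threshold (log2 -1.09, adjusted p = 0.0524). Genes that process and seal the breaks were among those that fell. Lig4, the ligase of end joining, had 3.25 to 6.28 against 27.0 and 29.6 (log2 -2.44, adjusted p = 0.000501) and kept its call in each of the 14 fits. Dclre1c, the hairpin-opening nuclease Artemis, fell from 11.7 and 13.3 to between 2.83 and 4.57 (log2 -1.58, lost without wt proB library 2). Polm, a polymerase that fills the ends, was at 6.32 and 4.52 in mouse 713 and at most 0.173 in the other mice, against 30.8 and 25 (log2 -3.87, lost without either wt proB library). Xrcc5, the Ku80 subunit that holds the ends, rose from 7.99 and 6.39 to between 16.2 and 48.8 (log2 1.79, lost without either). Dntt, which adds untemplated bases, divided the mice: 20.8 to 62.7 in mice 686 and 713 but 470 and 436 in mouse 760, beside 445 and 454 in wt proB.

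Growth genes rose together. Of 44 ribosome biogenesis genes, 26 rose, none fell and 44 had a log2 change above 0, with a median of 1.18 (1.40, 1.05 and 1.16 in mice 686, 713 and 760). Mybbp1a, a nucleolar partner of MYB and of the rRNA polymerase, had 128 and 116 for mouse 686, 85.4 and 79.2 for 713 and 110 and 105 for 760, against 27.2 and 24.9 in wt proB (log2 1.94, adjusted p = 0.00769). Its dHet proB values were 12.1, 24.6 and 28.7. Nle1, needed to mature the large ribosomal subunit, had 49.1 to 74.3 against 16.3 and 16.6 (log2 1.79, adjusted p = 0.0199). Rrp1b and Rrp12, nucleolar rRNA processing factors, rose by 1.76 and 1.7. Nop58, a core protein of the box C/D particles that modify rRNA, had 155 to 247 against 98.2 and 86.8 and just missed the threshold (adjusted p = 0.0536). Without mouse 686 the list held 7 genes that passed, and without wt proB library 1 or 2 it held none. In dHet proB against the same wt proB libraries none of the 44 passed (2 at an unadjusted p below 0.05), and the median was -0.21. The share of all genes that passed in that comparison is not given here.

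Some ribosome biogenesis genes share a short word close to their start site. The E-box CACGTG, which reads the same on both strands, is the letter sequence bound by MYC with MAX. It occurs in the RefSeq promoters (GRCm38.p6, 250 bases before to 50 after the start, matched by symbol) of 11 of 38 ribosome biogenesis genes (28.9%), beside 1015 of all 8350 tested genes with a promoter (12.2%). It lies after the start in 8 of the 38 (21.1%), against 168 of 8350 (2.01%), and before it in 3 (7.89%), against 885 (10.6%). Among other lists it was in 4 of 18 promoters of immediate early genes (22.2%), which fell, 4 of 23 of nucleotide synthesis genes (17.4%) and 6 of 56 of ribosomal protein genes (10.7%). It was in 1 of 10 of chaperone genes (10.0%) and 1 of 15 of folate genes (6.67%), lists with rises and no falls. The other lists searched, whose called genes mostly fell, had it in 0% to 7.41%. The 8 genes of the list that rose and hold it are shown with up to 12 bases on each side, on the strand of the gene, with the E-box in capitals. They were chosen for the word after their values were seen.
Mybbp1a, chr11:72441355-72441376 (+): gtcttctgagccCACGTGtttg
Nle1, chr11:82908355-82908384 (-): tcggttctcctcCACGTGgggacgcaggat
Tsr1, chr11:74898092-74898121 (+): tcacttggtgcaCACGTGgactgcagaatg
Grwd1, chr7:45830740-45830767 (-): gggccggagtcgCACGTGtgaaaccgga
Wdr43, chr17:71616220-71616249 (+): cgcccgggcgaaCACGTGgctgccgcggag
Utp20, chr10:88826765-88826789 (-): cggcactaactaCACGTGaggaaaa
Pes1, chr11:3963965-3963994 (+): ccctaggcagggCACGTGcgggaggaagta
Imp4, chr1:34439696-34439725 (+): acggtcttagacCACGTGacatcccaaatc
Counting the first transcribed base as 1, the word begins at base 41 in Mybbp1a, 24 in Nle1, 25 in Tsr1, 35 in Grwd1, 18 in Wdr43, 38 in Utp20 and 3 in Pes1. In Imp4 it begins 121 bases before the start. Their changes were 1.94, 1.79, 1.57, 1.51, 1.5, 1.15, 1.09 and 0.74 in the order printed. Over all called genes the word was in 108 of 695 promoters of higher genes (15.5%) and 90 of 843 of lower genes (10.7%). All 8 calls were lost without either wt proB library. A match is a description of the letters and does not show binding.

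MYC itself did not pass in this fit. Myc had 445 and 417 for mouse 686, 209 and 203 for 713 and 367 and 410 for 760, against 82.5 and 68.4 in wt proB. Every leukemic library lay above both normal ones (log2 2.10, adjusted p = 0.225). The dHet proB libraries, which share in the estimate of spread, had 9.39, 42.3 and 290, and Myc passed when the 5 units were fitted alone. Of 12 genes of its network none rose and 2 fell, beside 8.46% and 10.3% of all genes. Mycl, a relative of MYC, fell from 5.77 and 4.67 to at most 0.332. Mxd1, which opposes MYC, fell from 8.26 in both libraries to between 2.16 and 3.41.

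Other genes of protein synthesis rose too. Of 76 cytosolic ribosomal protein genes 37 rose and none fell (median 0.81). The 2 wt proB libraries differed here: the list summed to 39050 and 25210 FPKM in them and to 51240 to 56160 in B-ALL. In dHet proB it summed to 41610 to 51420, with a median change of 0.48 against wt proB. Rpl12 had 317 to 394 against 160 and 119 (log2 1.35, adjusted p = 0.00478) and Rps12 300 to 420 against 171 and 169 (log2 1.12). Many of these genes have near-identical pseudogenes, so their reads are uncertain, and 14 rose under quantile normalization. Aminoacyl-tRNA synthetases, which charge tRNAs, rose in 9 of 17 genes, with Tars at 82.6 to 160 against 49.0 and 52.9 (log2 1.13). Chaperonins and mitochondrial chaperones rose in 9 of 12, with Hspa9, the mitochondrial HSP70, at 166 to 302 against 76.4 and 65.8 (log2 1.61, adjusted p = 0.0138). Mitochondrial ribosomal proteins rose in 18 of 77 and translation initiation factors in 8 of 54. Eif4a2, a helicase whose paralog drives cap-dependent translation, fell by 1.28. Counted by calls alone, oxidative phosphorylation (3 of 76 higher, 2 lower) and the proteasome (4 of 37 higher) were near the background of 8.46%. Their medians were still raised, at 0.35 and 0.33 beside -0.02 over all genes. The change was positive in 64 of 76 and 34 of 37. All B-ALL libraries lay above both wt proB libraries in 39 of 76 and 24 of 37, beside 23.9% of all genes.

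Glycolysis had 9 of 22 genes higher (median 0.91). Eno1, enolase, had 2120 and 2073 for mouse 686, 1454 and 1461 for 713 and 1655 and 1574 for 760, against 424 and 388 (log2 2.07, adjusted p = 0.00324). Pdk1, which holds pyruvate back from mitochondria, had 56.3 to 75.4 against 18.9 and 15.8 (log2 1.78, adjusted p = 0.00136), and Ldha, which makes lactate, 538 to 798 against 281 and 196 (log2 1.42). Ldhb, the other lactate dehydrogenase subunit, fell from 19.5 and 14.6 to at most 0.737 (log2 -3.57, adjusted p = 0.000199). In purine and pyrimidine synthesis 11 of 26 genes rose and 1 fell. Besides Pnp2 and Pnp these included Aprt, which salvages adenine (122 to 176 against 41.6 and 38.8, log2 1.81, adjusted p = 0.000746), and Gart, a purine synthesis enzyme (102 to 180 against 45.8 and 47.0, log2 1.52). In folate metabolism 6 of 19 rose, led by Slc19a1, the folate carrier (60.4 to 81.2 against 18.6 and 15.8, log2 1.98), and Shmt2, the mitochondrial serine hydroxymethyltransferase (186 to 278 against 70.0 and 62.2, log2 1.74). Without mouse 686 the counts of genes that rose were 4 for glycolysis, 4 for nucleotide synthesis, 2 for folate, 3 for ribosomal proteins, 3 for chaperones and 2 for tRNA synthetases. Without wt proB library 1 they were 2, 2, 0, 12, 1 and 0, and without library 2 they were 0, 1, 0, 0, 0 and 0.

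In limma's test none of 37 DNA replication genes passed in either direction, and their median of 0.14 fell to -0.02 under quantile normalization and -0.06 after rescaling to TPM. At an unadjusted p below 0.05, 1 was higher and 0 lower. Of 30 mitosis genes 1 fell, Cenpf, a kinetochore protein (log2 -1.06), whose call was lost in 13 of 27 alternative settings. The median of the mitosis list was still lowered, at -0.31, and 24 of 30 had a log2 change below 0. All B-ALL libraries lay below both wt proB libraries in 17 of 30 and above both in 0, beside 24.5% and 23.9% of all genes. At an unadjusted p below 0.05 in limma's test, 3 were lower and 0 higher. Of the genes that gate entry to the cycle, 6 of 19 D cyclin, CDK4/6 and CDK inhibitor genes fell and 2 rose. Rb1, the retinoblastoma protein gene, had 2.01 to 5.30 against 17.5 and 15.8 (log2 -2.07, adjusted p = 0.00334), and Cdkn1c, a CDK inhibitor, at most 0.219 against 2.89 and 4.24 (log2 -2.05). E2f2 fell by 2.66. Among D cyclins, Ccnd3, which pre-B cells depend on, fell from 1166 and 1118 to between 291 and 468 (log2 -1.66, adjusted p = 0.0104). Ccnd1 rose from 41.1 and 32.3 to between 52.2 and 130 (log2 1.32, adjusted p = 0.0376) and was no more than 1.55 in dHet proB. Ccnd2 stood at 46.1 to 161 against 35.8 and 31.2 and did not pass. The calls of Rb1, E2f2, Ccnd3 and Ccnd1 were lost without either wt proB library. Cdkn1c was not tested in these fits for its low level, and passed in both with the genes of the full comparison kept, as Rb1 did.

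**Figure D3:**
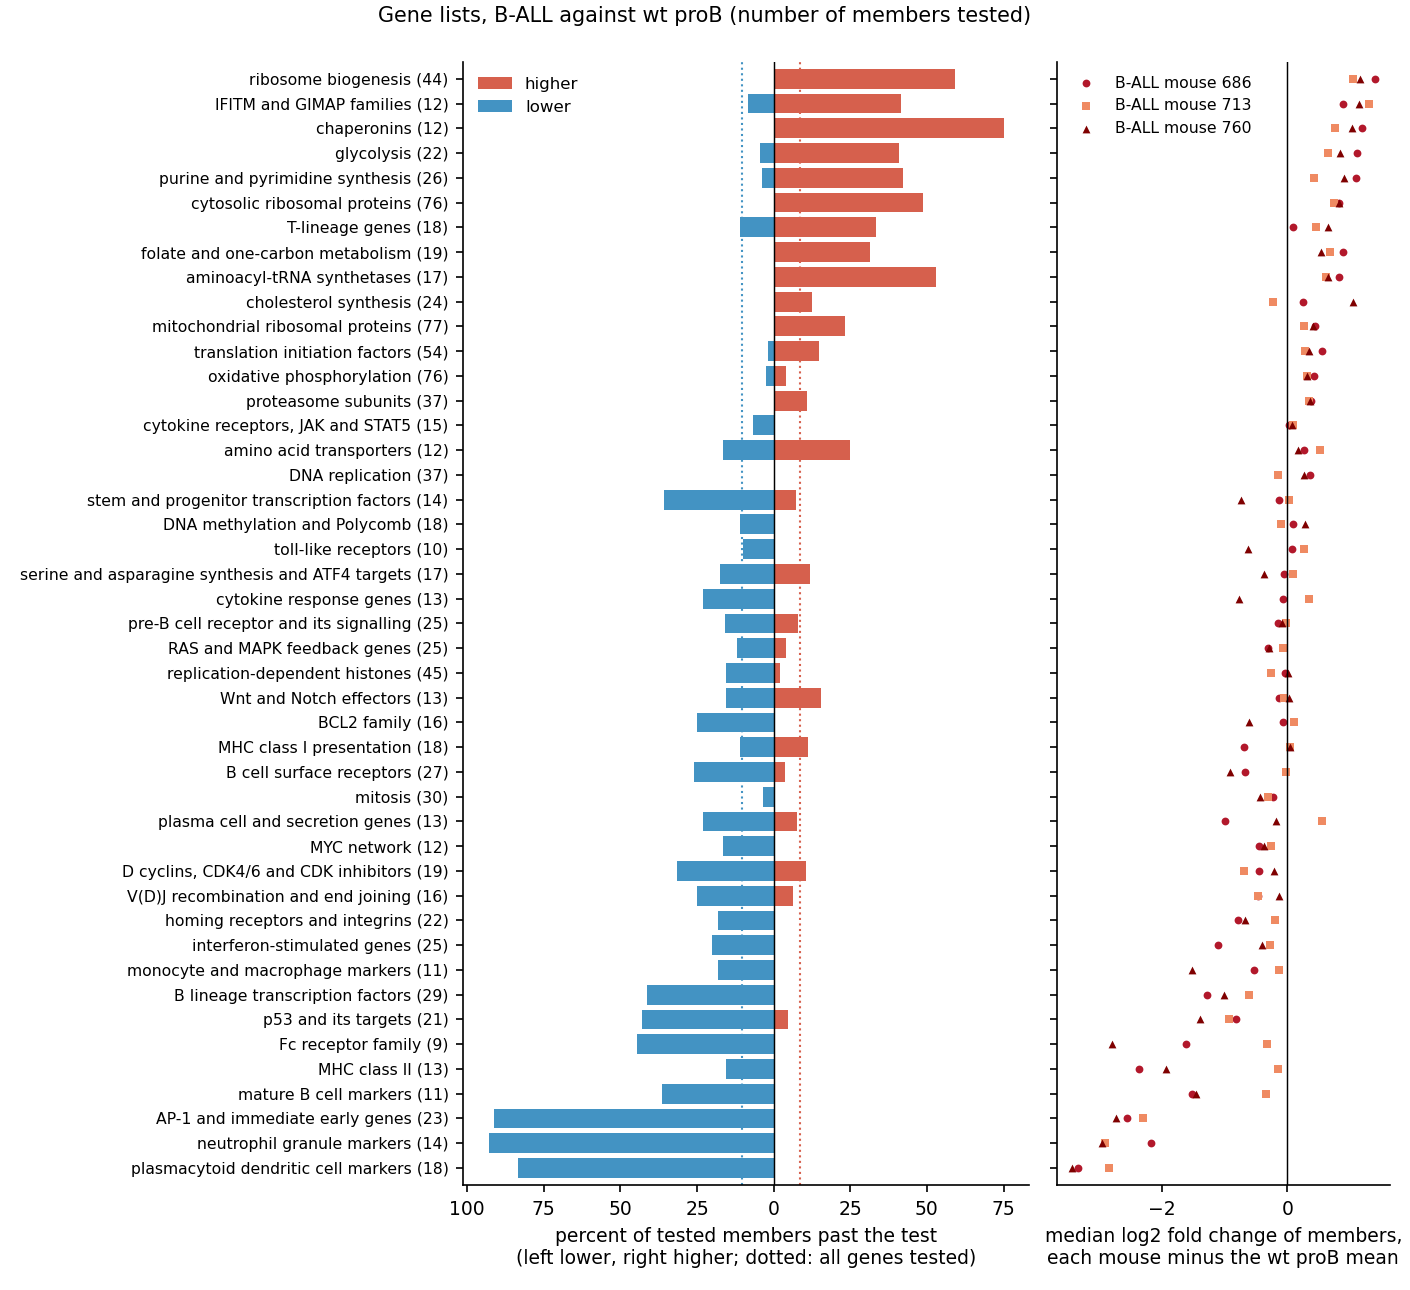
Left, the percentage of tested members of each gene list that passed the limma test as higher (right side) or lower (left side), with dotted lines at the 8.46% and 10.3% of all genes; right, the median log2 fold change of the members in each mouse against the wt proB mean. Ribosome biogenesis is at the top, with medians of 1.05 to 1.40, and immediate early genes and markers of neutrophils and plasmacytoid dendritic cells are at the bottom.

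Immediate early genes fell in nearly all cases. They are the genes that a cell switches on within minutes of a stimulus, by factors such as CREB and SRF that are already in place. Of 23 tested 21 fell and none rose (median -2.49), beside 10.3% lower over all genes. Fos had 0.289 and 0.197 for mouse 686, 0.407 and 0.314 for 713 and 0.168 and 0.192 for 760, against 89.9 and 51.1 in wt proB (log2 -5.77, adjusted p = 7.74e-05). Junb had 93.7 to 139 against 731 and 1194 (log2 -2.96, adjusted p = 0.00133), and Jun 65.5 to 79.5 in mice 686 and 713 and 162 and 173 in mouse 760, against 411 and 448 (log2 -2.16). Egr1, a zinc finger factor, was at 0.467 to 2.5 against 61.8 and 85.9 (log2 -5.11), and Nr4a1, an orphan nuclear receptor induced by antigen receptor signals, at 0.59 to 4.14 against 53.1 and 100 (log2 -4.50). Hspa1a, an inducible HSP70, was at most 0.0906 against 15.8 and 14.7 (log2 -3.95). In cultured dHet proB cells Fos was 0.61 to 2.08, Egr1 1.8 to 7.63 and Hspa1a 0.229 to 0.887. Against the same wt proB libraries 17 of the 23 fell there, with a median of -2.2. The share of all genes lower in that comparison is not given here, so this count has no background beside it. Without wt proB library 1, 7 of the 15 genes of the list that were still tested passed in B-ALL, and without library 2, 6 of 15. Junb, Egr1 and Nr4a1 kept their calls in both, and the call of Jun was lost in both. Fos and Hspa1a were below the FPKM minimum there and were not tested. With the genes of the full comparison kept, 18 and 15 of the 23 passed, Fos and Hspa1a among them both times.

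More members of this list fell. Dusp1, a MAP kinase phosphatase, had 11.8 and 12.1 in mouse 686, then 35.5 and 35.2, then 22.6 and 19.4 in mouse 760, against 205 and 225 (log2 -3.31, adjusted p = 0.00369). Btg2, an antiproliferative gene that is also a p53 target, had 44.0 to 117 against 391 and 448 (log2 -2.71, adjusted p = 0.00512). Zfp36, which degrades cytokine mRNAs, had 25.5 to 50.9 against 461 and 276 (log2 -3.14), and Egr2 0.147 to 0.381 against 5.03 and 6.36 (log2 -2.44). Dusp1 and Btg2 lost their calls without either wt proB library, while Zfp36 kept its call. Egr2 was not tested in these fits for its low level, and passed in both with the genes of the full comparison kept. In a separate list of RAS and MAPK feedback genes 3 of 25 fell and 1 rose, near the background. Junb, Jun, Zfp36 and Egr2 were picked from the list after their values were seen. The cyclic AMP response element TGACGTCA, the letters that CREB binds, is in the promoters of 2 of 18 genes of this list (11.1%) and 323 of 8350 tested genes (3.87%). The CArG box of SRF is in 2 of 18 (11.1%) and 126 of 8350 (1.51%). The 4 genes that hold them are shown with their neighbouring bases, on the gene's strand, the element in capitals.
Dusp1, chr17:26508597-26508626 (-): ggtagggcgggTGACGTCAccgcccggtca
Btg2, chr1:134079303-134079332 (-): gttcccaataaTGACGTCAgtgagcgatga
Zfp36, chr7:28379267-28379296 (-): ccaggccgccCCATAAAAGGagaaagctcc
Egr2, chr10:67537787-67537816 (+): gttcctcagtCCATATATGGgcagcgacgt
The elements begin 143, 166 and 58 bases before the start in Dusp1, Btg2 and Zfp36, and Egr2 has 5 listed starts. Another CArG box of Egr2, in the window chr10:67537484-67537513, is not shown. For comparison, 3 other words were searched on both strands. The EBF word CCCNNGGG was in 24.1% of promoters of lower genes, 19.3% of higher genes and 20.6% of all. The AP-1 word TGANTCA was in 7.12%, 6.62% and 5.57%, and the STAT word TTCNNNGAA in 8.3%, 8.78% and 8.47%. No word is contained in another.

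**Figure D4:**
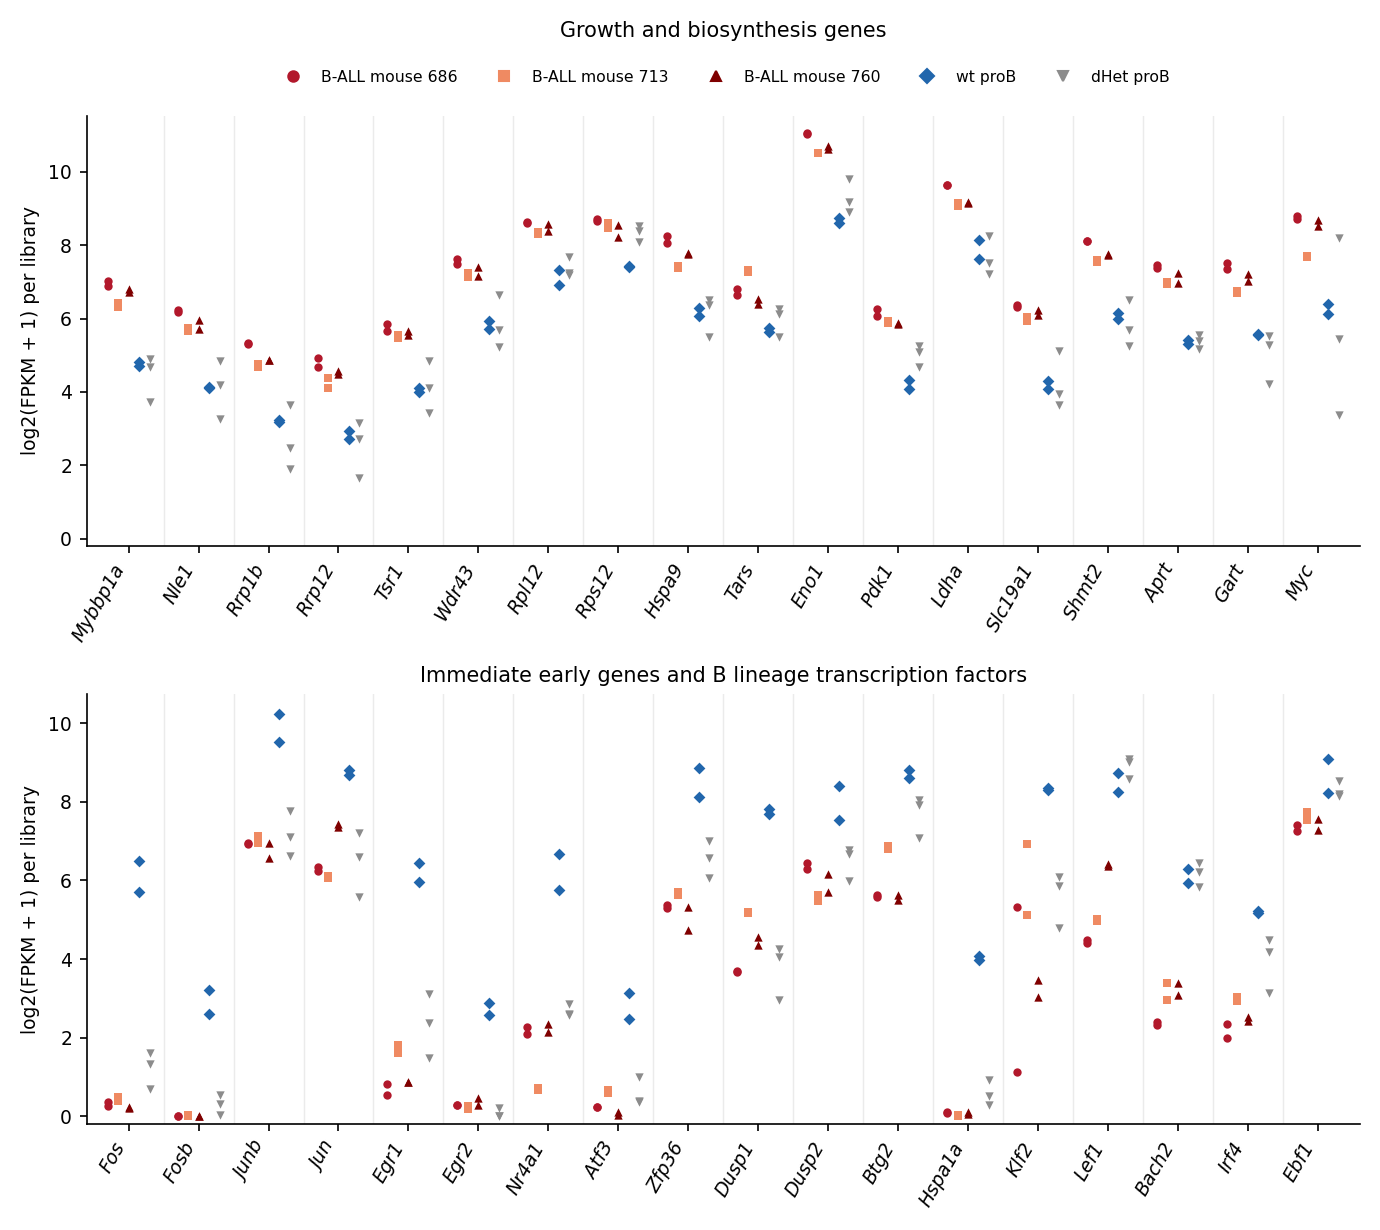
Each point is 1 library, placed by log2(FPKM + 1), with colours and marker shapes for the 3 B-ALL mice, wt proB and dHet proB. In the upper panel the leukemic libraries lie above both wt proB libraries in every gene shown, and in the lower panel they lie below both.

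Of 21 genes of p53 and its targets 9 fell and 1 rose, with a median of -1.15. Trp53 itself had 94.9 to 143 against 109 and 75.8 and did not pass. Plk2, a kinase that p53 induces, had 4.37 to 8.99 against 56.8 and 92.6 (log2 -3.41, adjusted p = 0.0187), and Gadd45g, a stress sensor, 3.76 to 14.2 against 55.5 and 75.4 (log2 -2.93, adjusted p = 0.00229). Some of these genes, such as Btg2, are immediate early genes as well. Sesn1, another p53 target, rose from 33.9 and 31.1 to between 61.2 and 139 (log2 1.46). In the BCL2 family 4 of 16 fell and none rose, beside 10.3% and 8.46% of all genes. Bcl2l1, which encodes BCL-XL, had 41.2 to 111 against 168 and 295 (log2 -1.81, adjusted p = 0.0137) and Mcl1 11.6 to 19.5 against 29.1 and 35.2 (log2 -1.15). These are survival proteins, while Pmaip1, which fell by 1.15, promotes death. Without wt proB library 1 the p53 list held 2 falls and without library 2 it held 1, and the BCL2 list, with 15 genes still tested, held none without either.

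Surface and presentation genes set mouse 713 apart from the others. In MHC class II 2 of 13 genes fell, beside 10.3% of all genes. Cd74, the invariant chain, had 484 and 481 for mouse 686 and 191 and 171 for 760 but 4599 and 4482 for 713, beside 3954 and 3282 in wt proB. H2-Ab1 had 104 to 194 in mice 686 and 760 and 814 and 804 in mouse 713, against 1047 and 1009. Without mouse 713, 10 of the 13 class II genes passed as lower, beside 1369 of all 10755 genes tested in that fit. That fit called more genes lower than the full comparison, which had 1124. In dHet proB Cd74 was at most 18.7. Cd2, an adhesion receptor of lymphocytes, had 404 and 401 in mouse 713, at most 6.88 in the others and 65.5 and 61.1 in wt proB. Fcrla, an intracellular Fc receptor relative of B cells, had 30 and 29.5 in mouse 713 and at most 1.66 in the others, against 294 and 203 (log2 -5.80, adjusted p = 0.0149, lost without either wt proB library). Of 9 Fc receptor family genes 4 fell. Of 27 B cell surface receptors 7 fell and 1 rose, the falls including Ms4a1, which encodes CD20 (1.08 to 5.47 against 103 and 54.5, log2 -4.55, adjusted p = 0.000773).

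Small interferon-induced proteins and lymphocyte GTPases went up, while no gene of the wider interferon list rose. In the IFITM and GIMAP families 5 of 12 rose and 1 fell, beside 8.46% and 10.3% of all genes. Gimap4, a GTPase of lymphocyte survival, had 319 to 407 in all 6 libraries against 42.5 and 21.5, and 1.5 to 13.7 in dHet proB (log2 3.57, adjusted p = 0.00863). Gimap3 and Gimap7 rose by 3.16 and 2.15. Ifitm1, which restricts virus entry, had 141 and 160 in mouse 686, only 50.5 and 49.6 in mouse 713, yet 1120 and 979 in mouse 760, against 3.04 and 5.81 (log2 5.26, adjusted p = 0.0199). It was at 95.9 to 532 in dHet proB. These calls were lost without either wt proB library. Of 25 interferon-stimulated genes 5 fell and none rose, beside the same 10.3% and 8.46%. Bst2, which tethers viruses to the cell, was among those that fell (55.8 to 101 against 282 and 197, log2 -1.69).

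Of 18 T-lineage genes 6 rose and 2 fell, beside 8.46% and 10.3% of all genes. Lck, the kinase of the T cell receptor, had 83.6 and 83.0 in mouse 686, then 208 and 196, then 325 and 270 in mouse 760, against 49.3 and 44.9 (log2 1.84, adjusted p = 0.0282). Tcf7, which starts the T programme, had 4.01 to 20.5 against 1.49 and 1.78 (log2 1.87), and Grap2, an adaptor, 9.48 to 10.9 against 2.71 and 3.04 (log2 1.55). The other 3 that rose were the CD3 chains, which define T cells, at low levels: Cd3e had 1.18 to 5.41 against 0.671 and 0.273 (log2 1.52). Cd3d had 1.54 to 4.12 against 0.631 and 0.449, and Cd3g 1.19 to 5.54 against 0.769 and 0.831. All 6 calls were lost without either wt proB library, and those of Cd3e and Cd3g also without mouse 686. The part of admixed T cells in these rises was not tested. Notch1, which is not in that list and encodes the receptor that turns progenitors to the T lineage, rose from 7.06 and 7.67 to between 13.4 and 33.0 (log2 1.44, adjusted p = 0.0282, lost without either wt proB library). In the list of stem and progenitor factors 1 of 14 rose and 5 fell, while 8 had a log2 change above 0 (median 0.13). Among the falls, Meis1 and Hoxa7 went from 5.17 to 9.90 in the wt proB libraries to at most 0.128 in B-ALL. Neither was tested without a wt proB library, and with the genes of the full comparison kept Meis1 passed both times and Hoxa7 neither time.

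Many of the largest falls were in marker genes of other blood cells, whose transcripts were found in the sorted wt proB libraries. Whether such cells were in the sort was not tested. Of 18 markers of plasmacytoid dendritic cells, which are interferon-producing cells of the marrow, 15 fell. Siglech, their surface lectin, had 0.015 to 1.65 in B-ALL against 132 and 77.3 (log2 -6.03), and Klk1 was listed at 0 in all B-ALL and dHet proB libraries against 14.1 and 6.48. The list summed to 244 to 710 FPKM in B-ALL libraries, 1874 and 2505 in wt proB and 302 to 383 in dHet proB. Of 14 neutrophil granule markers 13 fell. Ngp had 16.3 and 18.3 in mouse 686 and at most 0.555 in the others, against 144 and 213 (log2 -5.78). This list summed to 52.9 and 53.8 in mouse 686, 1.28 to 3.81 in the other mice, 422 and 459 in wt proB and at most 3.39 in dHet proB. Camp, S100a8 and S100a9, which store or form antimicrobial proteins of neutrophils, fell by 4.84, 5.09 and 4.31. Without wt proB library 1, 4 of 12 plasmacytoid dendritic cell markers and 2 of 7 neutrophil markers that were still tested passed as lower, and without library 2, 4 and 1. With the genes of the full comparison kept, these counts were 13 of 18 and 8 of 14, then 14 and 8.

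Sums of other marker lists moved in both directions. Monocyte and macrophage markers summed to 37.9 to 255 in B-ALL and 214 and 278 in wt proB. Of these 2 of 11 were lower, beside 10.3% of all genes. NK markers summed to 97.0 to 342 against 55.2 and 62.7, while none of 7 rose, 1 fell and 5 had a log2 change below 0. Nkg7 alone gave 21.1 to 328 of these sums against 19.1 and 21.1. Red cell and megakaryocyte markers summed to 364 to 871 against 108 and 137, with none of 6 past limma's test in either direction and none at an unadjusted p below 0.05. The part of these cells in the falls of Cd7, Tyrobp, Ccl4, Fcmr, Cox6a2 and Cd209a, which all went down by over 4 on the log2 scale, was not tested. Some of the list's genes, Irf8 and Dntt among them, are also expressed by proB cells. As3mt, which methylates arsenic, Pcp4l1 and Smtnl2 fell by 4.43, 4.93 and 4.47 and belong to no marker list used here. As3mt had 0.0414 to 0.651 against 27.1 and 26.8 and was listed at 0 in dHet proB, while Pcp4l1 had 0.174 to 0.791 against 34.7 and 52.5 and stood at 5.58 to 36.5 there.

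**Figure D5:**
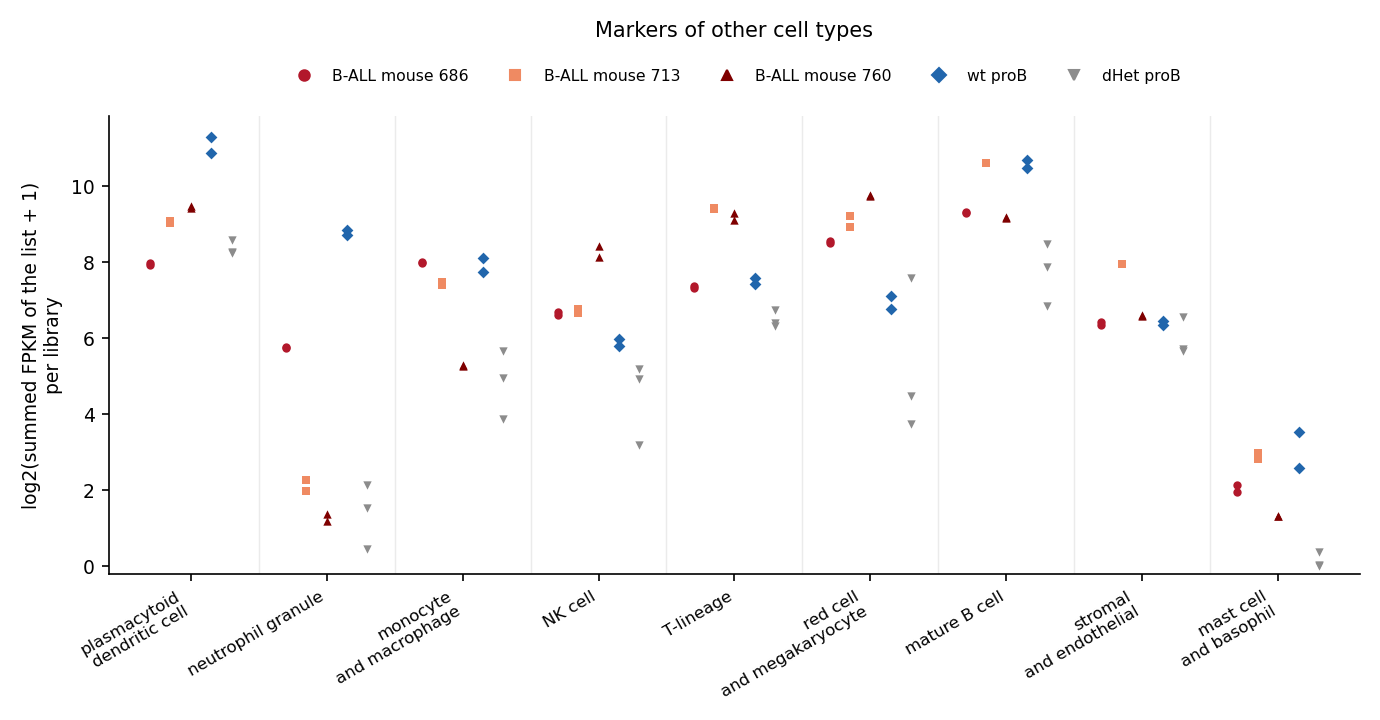
Each point is the summed FPKM of a marker list in 1 library, on a log2(sum + 1) axis. Sums for plasmacytoid dendritic cell and neutrophil markers are highest in the 2 wt proB libraries, at 1874 and 2505 and at 422 and 459.

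Among called genes with a mean of at least 10 FPKM in the higher group, and leaving out the predicted gene Gm525, whose range was wider, the leukemias differed most from each other in Fcrla, Ifitm1, Ctsh, S100a8 and Scin. Ctsh, a lysosomal protease, had 33.0 and 33.9 for mouse 713, 5.55 and 4.89 for 686 and 0.611 and 0.866 for 760, against 109 and 67.4 (log2 -3.60, adjusted p = 0.0433). Scin, an actin-severing protein, was highest in mouse 760, at 182 and 120, then 58.0 and 35.9 for 686 and 11.5 and 6.15 for 713, against 2.58 and 1.89 (log2 3.65, adjusted p = 0.0314). Both calls were lost without mouse 686 and without either wt proB library. Nmrk1, a kinase of NAD synthesis, likewise ranged from 29.4 in mouse 713 to 198 in mouse 760, against 8.23 and 5.59 (log2 3.37, adjusted p = 0.0113). In each of these 3 genes all 6 libraries lay on the same side of both wt proB libraries.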

How the data were processed

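RNA of 11 libraries was sequenced, and 1 table of FPKM values per library was deposited. The FPKM values are used as the authors deposited them. The submitters' processing notes name build mm9 and the tools Cuffnorm 2.2.1, Cuffdiff, Cufflinks 2.2.1, STAR 2.5.3a and bcl2fastq (0.3.1 and 2.20.0.422), with no order. Sources used here do not give the annotation, the strand handling or the scaling between libraries, and read depth is known only relative to 1 library.

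From these values, log2(FPKM + 1) was averaged over the 2 libraries of each leukemic mouse. Genes with FPKM of at least 1 in 2 of the 5 units were fitted with limma 3.58.1 (statmod 1.5.0, R 4.3.3; mean-variance trend, two-sided, Benjamini-Hochberg) over 8 units: 3 mice, 2 wt proB and 3 dHet proB libraries, which share 1 estimate of spread. No counts were used. Non-overlap means that all 6 B-ALL libraries lay on 1 side of both wt proB libraries. The dHet proB library 3 carries replicate 2 in its source name. The code was tested on simulated data.

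Named genes are Ebf1, Pax5, Rag1, Rag2 and Myc; the 25 largest rises and 25 largest falls whose higher group averaged at least 10 FPKM without overlap, predicted models left out; up to 4 called members per direction and 2 uncalled ones of each of 50 lists; and genes with the largest range over mice or the smallest p. Other genes named (the neighbours of Rnase12 and Sos1, Gm525, the marker checks, Klk1, Dntt, Cd3d, Cd3g, Junb, Jun, Zfp36, Egr2 and further E-box genes) were chosen after their values were seen. Some genes that the rule names are not reported here. The comparison, members and lists were chosen with earlier results of these data known, so no p is given for a list. Alternatives covered the pseudocount, filter, scaling, units and each library left out.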

Additional observations from a re-analysis of the deposited data

How the results depend on the processing

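Limits come first. With 2 wt proB libraries, the calls depend on both: without wt proB library 1 there were 90 higher and 83 lower genes and without library 2 there were 46 and 60. Over all fits that left out a mouse or library, the counts ran from 1 to 1121 higher and from 2 to 1369 lower. The lowest came from the 5 units alone without wt proB library 2, a fit chosen after seeing the data; without library 1 it gave 3 and 3. With the genes of the full comparison kept, also chosen after seeing the data, there were 223 and 437 without library 1 and 114 and 383 without library 2. Of the 123 called genes named, 23 were tested and kept their call in each of 14 planned fits that left out a mouse or library. A further 12 were not tested without a wt proB library and kept their call in the other 12 fits, and 11 of these passed both times with the genes kept. None of the called genes changed direction. Fewer genes are tested at an FPKM minimum of 5, which gave 725 lower genes. Rescaling to TPM gave 540 higher and 1717 lower, with the median of all genes moved to -0.23.

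Some list medians changed sign, and the cause was not tested. Amino acid transporters reached -0.0834 after rescaling to TPM, where Thumpd2 had -0.05154. Wnt and Notch effectors reached 0.123 with only library 2 of each mouse, stromal and endothelial markers 0.00523 with no filter, and histones 0.133 under quantile normalization and 0.0275 without wt proB library 1 with the genes kept. With 1 mouse or library left out, medians ran from -0.266 to 0.0203 for RAS and MAPK genes, -0.272 to 0.0657 for Wnt and Notch effectors, -1.23 to 0.0194 for mast cell markers and -0.286 to 0.0493 for histones. The uncalled change of Cd79a was -0.1177 under quantile normalization and -0.01905 after rescaling to TPM, and ran from -0.1127 to 0.3481 with 1 mouse or library left out.

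Library numbers were not shown to pair the samples across groups: differences between libraries 1 and 2 correlated at r from 0.138 to 0.662 among the 3 mice but from -0.136 to 0.116 between mice and wt proB. A fit with a replicate block and the mouse as a random effect called 1137 genes higher and 1189 lower, and 5 named calls were not made there, those of Cd3g, Cenpf, Klf2, Prkcb and Utp20.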
